A study of Mus musculus with 8 samples.

Results

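MHC class II molecules present peptides from the endosomal pathway to CD4 T cells. The surface molecule is a pair of an alpha and a beta chain, which the invariant chain CD74 accompanies through the cell. In late endosomes H2-M exchanges the last fragment of the invariant chain for peptide, and H2-O inhibits H2-M. Transcription of the surface chain genes rests on the coactivator CIITA, which acts through the conserved X and Y boxes of their promoters. CIITA is largely restricted to antigen-presenting cells. Mouse T cells are generally taken to lack surface class II. The 8 genes described here were chosen by name as a readout of antigen-presenting cell transcripts: the classical chains H2-Aa, H2-Ab1 and H2-Eb1, the invariant chain Cd74, the H2-M chains H2-DMa and H2-DMb1, the H2-O beta chain H2-Ob, and Ciita. All 8 were found by symbol among the 23997 genes of the table, and 7 passed the filter on low values. Ciita did not, and its values are given without a test.

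Expression was measured by RNA sequencing of regulatory T (Treg) cells of C57BL/6 mice, with the CD4+YFP+ fraction sorted out of spleen and draining lymph nodes. Bcl11b-deficient cells had the genotype Bcl11b f/f Foxp3-YFP-Cre/+ (4 libraries), and Bcl11b-sufficient cells had Bcl11b f/+ Foxp3-YFP-Cre/+ (4 libraries). Both groups thus carry a floxed allele and a Cre fused to YFP that the Foxp3 gene drives, and the sufficient cells keep a wild-type allele. The labels state no age, sex or pooling of animals. Foxp3 is X-linked, so an animal with a single Cre allele and a wild-type one also holds Treg cells without Cre, which a sort on YFP leaves out.

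Only 5 of the 8 libraries could be treated as independent. In 3 pairs, replicates 1 and 3 of either group and replicates 2 and 4 of the deficient group, the 2 libraries differed by 1.08 to 1.13 times the sampling noise of their reads, against 1.71 to 2.53 times in the other 9 pairs of the same group. Each such pair differed by little more than sampling noise and was counted as 1 sample, which left 2 deficient and 3 sufficient libraries. Whether these are separate animals is not stated, and the p-values measure only the spread between libraries, which may be technical. Estimated depth was about 2700000 to 11840000 fragments per library. Levels are in FPKM, fragments scaled to transcript length and to the library's total, as the authors deposited them. Sufficient replicate 4 carried 31182.5 FPKM of Snora61, listed at 0 elsewhere, which takes up part of its total. Bcl11b was 21.7 ± 3.83 FPKM in deficient (SD, n = 2) and 42.7 ± 3.68 FPKM in sufficient libraries (SD, n = 3), a log2 fold change of -0.95 (SE 0.14, limma adjusted p = 0.0238). A value per gene cannot show which exons were read, and the call ended without sufficient replicate 2 and without any of the 3 averaged pairs, at log2 fold changes of -1.13 to -0.78. T cell genes were abundant in both groups, with Cd3e at 253 ± 4.95 against 278 ± 19.4 FPKM and Foxp3 at 153 ± 0.517 against 187 ± 18.8 FPKM.

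RefSeq promoter windows (GRCm38.p6) were matched by symbol for 5 of the 8 members. Windows of 4 of them are shown, with that of H2-Oa, because they set the gene that fell, H2-Ob, beside members with a fold change of the opposite sign and beside its partner chain. Each line runs 5′ to 3′ on the gene's own strand, from 120 to 36 bases before the start of the RefSeq entry. That start lies 119, 39 and 2 bases downstream of the GENCODE gene start in H2-DMb1, H2-Oa and H2-Ob. The H2-DMb1 window, with both marked stretches, thus lies almost wholly inside the GENCODE span, which begins at 34153072. The window of H2-Oa enters that gene's span, which begins at 34092340, only at its end. Capitals mark the Y box letters GATTGG and, further upstream, an X box form.
H2-Eb1, chr17:34305747-34305831, plus strand: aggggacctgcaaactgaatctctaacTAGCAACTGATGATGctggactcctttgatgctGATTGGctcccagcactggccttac
H2-DMb1, chr17:34153071-34153155, plus strand: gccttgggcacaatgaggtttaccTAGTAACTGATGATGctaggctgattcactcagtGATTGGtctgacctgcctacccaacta
H2-Aa, chr17:34287859-34287943, minus strand: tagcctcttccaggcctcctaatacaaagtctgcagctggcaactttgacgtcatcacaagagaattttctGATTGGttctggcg
H2-Ob, chr17:34238785-34238869, plus strand: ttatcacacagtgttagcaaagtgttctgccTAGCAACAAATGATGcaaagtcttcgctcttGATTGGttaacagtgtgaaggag
H2-Oa, chr17:34092259-34092343, plus strand: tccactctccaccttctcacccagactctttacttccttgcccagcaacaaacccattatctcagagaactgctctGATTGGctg

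The Y box letters began 60, 62, 49, 58 and 44 bases before the start in H2-Eb1, H2-DMb1, H2-Aa, H2-Ob and H2-Oa. GATTGG, searched on both strands, was in 16.1% of all 32851 RefSeq promoter windows, and its core ATTGG, which lies inside it, in 37.4%. The X box form began 93, 96 and 89 bases before the start in H2-Eb1, H2-DMb1 and H2-Ob. It was chosen after the windows had been read and was found in 3 of 32851 windows, these 3. Of the X box patterns written down earlier, the X box core was in 5.33% of windows and its longer form in 0.0609%, and among the 5 members with a window only H2-DMb1 matched either. These patterns overlap each other at the X box. The Y box letters are shared by H2-Ob, H2-Eb1 and H2-DMb1. That they also share the X box form follows from how it was chosen and is no result. Under the X box patterns written down earlier, H2-Ob and H2-Eb1 had no match. A window left unmarked, as that of H2-Aa at the X box, does not show that the box is absent. A match describes letters and does not show that a factor binds.

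The classical chains had higher mean levels in deficient cells, by 4.30 to 4.94 times, but none passed the test over all genes. H2-Aa, the alpha chain of I-A (ENSMUSG00000036594.15, chromosome 17, 34282744 to 34287823, minus strand, GRCm38), measured 28.6, 20.8, 32.9 and 20.7 FPKM in deficient replicates 1 to 4, against 1.13, 6.95, 1.07 and 7.58 FPKM in sufficient replicates 1 to 4. Every deficient value was above every sufficient one, and sufficient replicates 1 and 3 were far below replicates 2 and 4. H2-Aa averaged 25.8 ± 7.11 FPKM in deficient (SD, n = 2) and 5.21 ± 3.57 FPKM in sufficient libraries (SD, n = 3), a log2 fold change of 2.33 on the log2(FPKM + 1) scale (SE 0.58, 95% interval 0.96 to 3.69, limma adjusted p = 0.0969). That scale understates the change of low genes.

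H2-Ab1, its beta chain partner (chromosome 17, 34257689 to 34269419, plus strand), measured 25.2, 15.0, 24.8 and 14.7 FPKM in deficient replicates 1 to 4, against 0.999, 6.29, 0.472 and 6.89 FPKM in sufficient replicates 1 to 4. As for H2-Aa, deficient replicates 1 and 3 were highest and sufficient replicates 1 and 3 lowest. The log2 fold change was 2.13 (SE 0.63, 95% interval 0.65 to 3.62, limma adjusted p = 0.146). H2-Eb1, the I-E beta chain (chromosome 17, 34305867 to 34316674, plus strand), measured 12.9, 9.22, 12.5 and 8.35 FPKM in deficient replicates 1 to 4, against 0.458, 2.88, 0.703 and 3.31 FPKM in sufficient replicates 1 to 4. Again the groups did not overlap. The log2 fold change was 1.96 (SE 0.42, 95% interval 0.96 to 2.95, limma adjusted p = 0.0671). The I-E alpha chain, which C57BL/6 mice do not make, is represented by H2-Ea-ps, listed at 0 in all 8 libraries.

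The low values rest on few reads. At the estimated depths and the longest coding transcript, H2-Aa had about 3 fragments in sufficient replicate 1 and 14 in replicate 3, against about 93 and 408 in deficient replicates 1 and 3. The spread among sufficient libraries was wide for all 3 chains: replicate 2 over the mean of replicates 1 and 3 gave 6.32 for H2-Aa, 8.56 for H2-Ab1 and 4.97 for H2-Eb1. Without sufficient replicates 1 and 3 all 3 chains passed the test at smaller fold changes, with a log2 fold change of 1.67 for H2-Aa (limma adjusted p = 0.0240), 1.42 for H2-Ab1 (0.0480) and 1.499 for H2-Eb1 (0.0309), where 1.14% of all genes were called higher. With library totals made equal H2-Eb1 passed (limma adjusted p = 0.0383), where 3.21% of all genes were called higher.

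**Figure D1:**
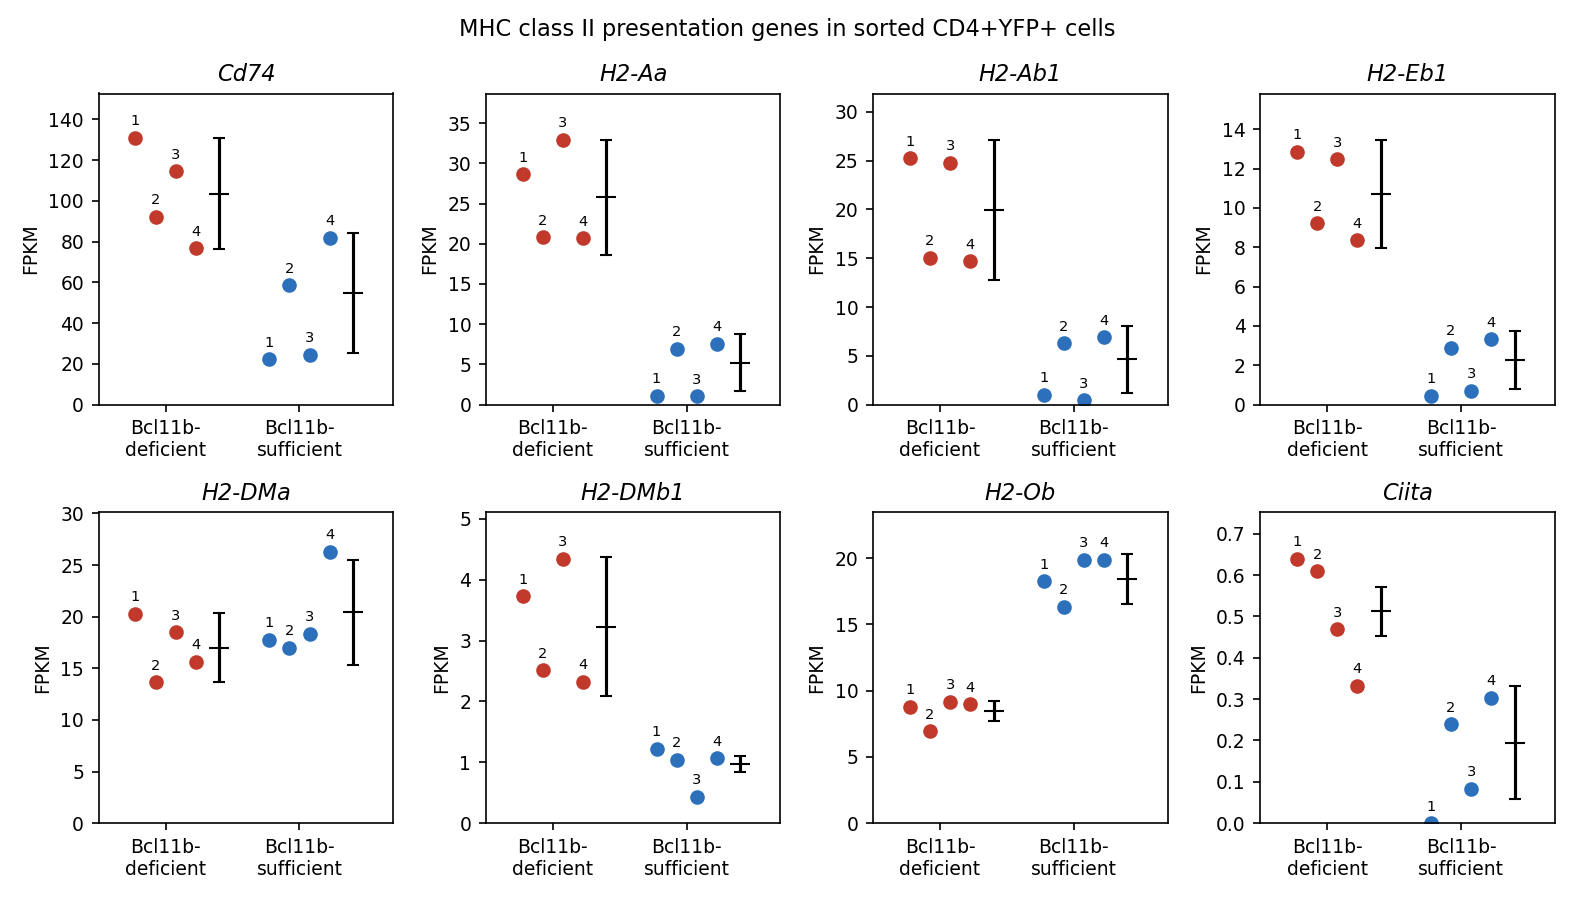
FPKM of the 8 genes in each library, deficient (red) left of sufficient (blue), with replicate numbers. The black bar is the mean ± SD over the 2 deficient and 3 sufficient independent libraries. H2-Aa, H2-Ab1 and H2-Eb1 were higher in every deficient library, H2-Ob was lower in every one, and the groups overlap for H2-DMa.

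Cd74, the invariant chain gene on chromosome 18, was the most abundant of the 8. Its level was 131, 92.1, 115 and 76.8 FPKM in deficient replicates 1 to 4, against 22.3, 58.6, 24.5 and 81.8 FPKM in sufficient replicates 1 to 4. Sufficient replicate 4 lay above deficient replicate 4, and the groups separated only after averaging, where the lower deficient library was 1.03 times the highest sufficient one. Cd74 averaged 104 ± 27.1 FPKM in deficient (SD, n = 2) and 54.6 ± 29.4 FPKM in sufficient libraries (SD, n = 3), a log2 fold change of 1.06 (SE 0.47, 95% interval -0.05 to 2.16, limma adjusted p = 0.302). Cd74 made up 54.7% of the summed FPKM of the 8 genes in each deficient library, against 36.7% in sufficient replicates 1 and 3, 53.6% in replicate 2 and 55.6% in replicate 4.

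Among the genes of peptide loading, the alpha and the beta chain of H2-M had different patterns. H2-DMb1 (chromosome 17, 34153072 to 34160230, plus strand) measured 3.73, 2.52, 4.34 and 2.33 FPKM in deficient replicates 1 to 4, against 1.23, 1.04, 0.434 and 1.06 FPKM in sufficient replicates 1 to 4. The groups did not overlap, and the log2 fold change was 1.07 (SE 0.22, 95% interval 0.55 to 1.60, limma adjusted p = 0.0592). It passed with library totals made equal (limma adjusted p = 0.0383) and with robust empirical Bayes (0.0426), where 2.11% of all genes were called higher. The value is uncertain, because 27.2% of the 50-base words of its longest coding transcript also occur in H2-DMb2, a near-identical neighbour that measured 1.25 ± 0.0810 against 1.14 ± 0.138 FPKM (limma adjusted p = 0.875).

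H2-DMa (chromosome 17, 34119541 to 34139101, plus strand) measured 20.3, 13.6, 18.5 and 15.6 FPKM in deficient replicates 1 to 4, against 17.8, 16.98, 18.4 and 26.3 FPKM in sufficient replicates 1 to 4. The groups overlapped, at a log2 fold change of -0.24 (SE 0.21, 95% interval -0.73 to 0.25, limma adjusted p = 0.597). The annotation overlaps Brd2 on the opposite strand by 3094 bases. The sources do not state whether the counting used strand, so reads of the pair might not be told apart. H2-DMa was 4.81 and 6.04 times H2-DMb1 in the 2 deficient libraries, against 21.8, 16.3 and 24.7 times in the 3 sufficient ones.

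H2-Ob, the beta chain of the H2-M inhibitor H2-O, was the 1 member of 7 tested that passed, and it fell. It lies on chromosome 17 (ENSMUSG00000041538.16, 34238903 to 34254414, plus strand). Its level was 8.80, 6.92, 9.18 and 8.98 FPKM in deficient replicates 1 to 4, against 18.3, 16.3, 19.9 and 19.9 FPKM in sufficient replicates 1 to 4. The highest deficient value was well below the lowest sufficient one, and neither group held a library apart from the rest. H2-Ob averaged 8.47 ± 0.735 FPKM in deficient (SD, n = 2) and 18.4 ± 1.87 FPKM in sufficient libraries (SD, n = 3), a log2 fold change of -1.03 (SE 0.13, 95% interval -1.34 to -0.73, limma adjusted p = 0.0151). The call ended without the filter on low values (limma adjusted p = 0.0540), and without deficient replicates 1 and 3 (0.0977) or deficient replicates 2 and 4 (0.117), each of which leaves 1 deficient library, at log2 fold changes of -1.03, -1.11 and -0.95.

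Its alpha chain partner H2-Oa measured 25.7, 17.8, 22.6 and 17.02 FPKM in deficient replicates 1 to 4, against 16.2, 19.3, 12.4 and 26.3 FPKM in sufficient replicates 1 to 4. The groups overlapped, with a log2 fold change of 0.08 (SE 0.25, 95% interval -0.51 to 0.66, limma adjusted p = 0.902). Its annotation is covered over 2895 bases by the antisense gene BC051537, so its level carries the same doubt as that of H2-DMa. H2-Oa was 2.68 and 2.19 times H2-Ob in the 2 deficient libraries, against 0.750, 1.18 and 1.32 times in the 3 sufficient ones.

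Ciita, the class II coactivator (chromosome 16, 10480059 to 10528418, plus strand), was low throughout. Its level was 0.640, 0.609, 0.469 and 0.332 FPKM in deficient replicates 1 to 4, against 0, 0.239, 0.0834 and 0.303 FPKM in sufficient replicates 1 to 4. The groups did not overlap, but these values correspond to about 11 to 31 fragments in deficient and 0 to 22 in sufficient libraries. Its log2 fold change in a fit with no filter on low values was 0.35, with SE 0.11 and limma adjusted p = 0.245. Dexi lies within its annotated span on the opposite strand. In the mean of sufficient replicates 1 and 3, Ciita was 0.0417 and H2-Aa 1.10 FPKM, while H2-Ob was 19.1 and H2-DMa 18.1 FPKM. Dependence of any member on Ciita was not tested.

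Over all genes, 205 of 10614 (1.93%) were called higher and 74 (0.697%) lower in deficient libraries, 279 (2.63%) in all, against 0 and 1 of the 7 tested members (limma, Benjamini-Hochberg adjusted p under 0.05). At an unadjusted p under 0.05, H2-Aa, H2-Ab1, H2-Eb1 and H2-DMb1 would be higher, against 9.36% of all genes, and H2-Ob lower, against 8.45%. Every independent deficient library was above every sufficient one in 5 of the 7 tested members, against 18.9% of all genes, and below in 1, against 17.9%. H2-DMb1, counted in both of these comparisons, passed the filter on low values only through the deficient group. Its mean in sufficient libraries was 0.978 FPKM. The median log2 fold change was 1.07 over the 7 tested members and -0.01 over all tested genes. The member median is the value of H2-DMb1, so it carries the same limit and the doubt over reads shared with H2-DMb2. With all 8 libraries taken as separate samples, which counts near-identical pairs as replicates, 5 members were called higher, namely Cd74, the 3 classical chains and H2-DMb1, and H2-Ob lower, against 9.46% of all genes called higher and 7.98% lower in that fit.

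**Figure D2:**
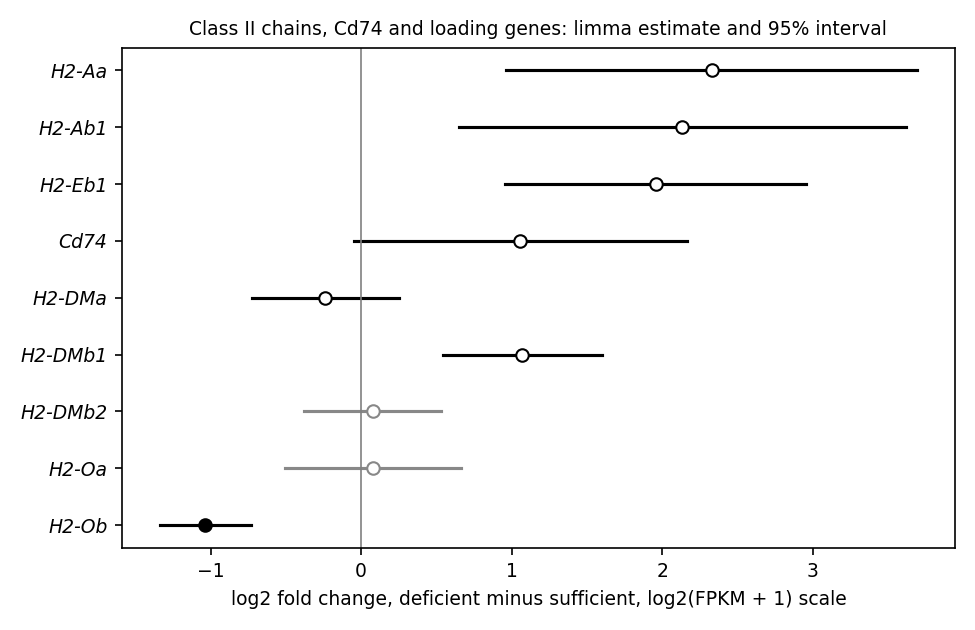
Log2 fold change, deficient minus sufficient, with its 95% interval from limma. Members are black and the partner chains H2-DMb2 and H2-Oa grey, and a filled point marks an adjusted p under 0.05, which H2-Ob alone reached among the 9 genes.

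Ratios between genes within a library describe how the members kept their proportions. The ratio of H2-Aa to H2-Ab1 was 1.23 and 1.39 in deficient libraries and 1.10 to 1.497 in sufficient ones, and that of H2-Aa to H2-Eb1 was 2.36 to 2.43 in deficient and 1.90 to 2.41 in sufficient libraries. The proportions of the 3 chains thus differed far less between libraries than their levels did. Cd74 differed from them: it was 3.99 and 4.07 times H2-Aa in deficient libraries, against 8.43 to 21.3 times in sufficient ones. H2-Aa was 2.61 and 3.42 times H2-Ob in deficient libraries, against 0.0577 to 0.426 times in sufficient ones. Between the 2 deficient libraries, replicates 1 and 3 were above replicates 2 and 4 for all 8 members, by 1.13 times for H2-Ob to 1.68 times for H2-Ab1.

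**Figure D3:**
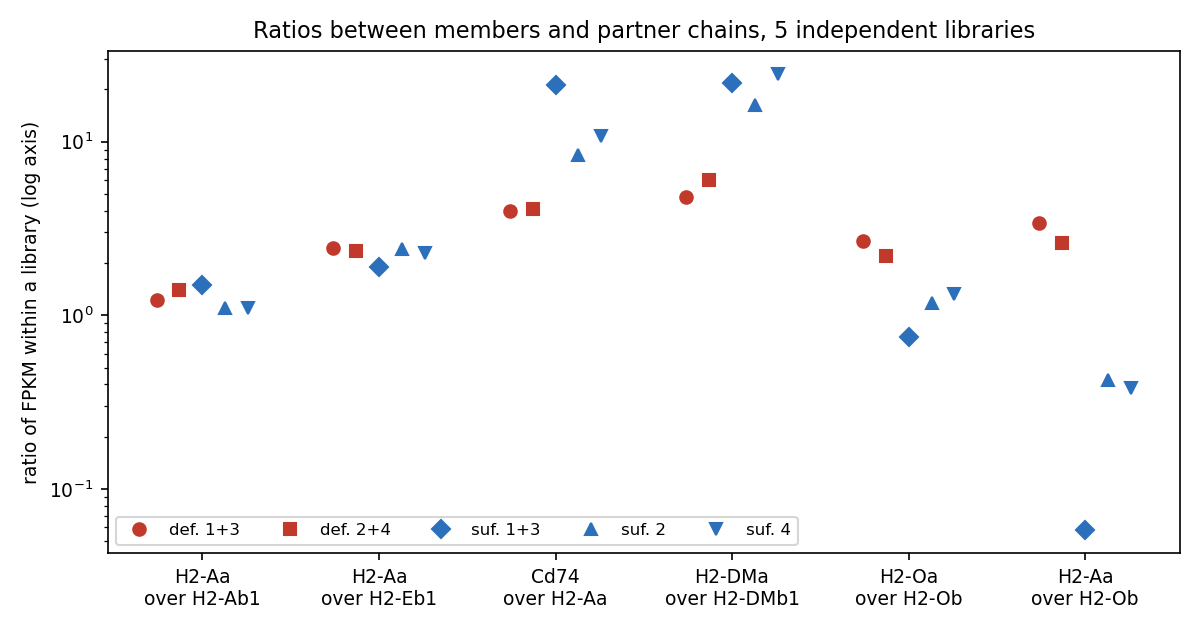
FPKM of the first gene divided by that of the second within each of the 5 independent libraries, on a log axis, deficient (red) left of sufficient (blue). The ratios among H2-Aa, H2-Ab1 and H2-Eb1 lie close together, while those of Cd74 over H2-Aa, H2-DMa over H2-DMb1, H2-Oa over H2-Ob and H2-Aa over H2-Ob separate the groups.

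The 6 members on chromosome 17 lie among 13 protein-coding genes between H2-Oa and H2-Eb1, all of which were tested. H2-Ob was the only one called, against 2.63% of all tested genes. H2-Ob ends 3274 bases before H2-Ab1 begins, so the member that fell and a classical chain with a fold change of opposite sign are neighbours. The 4 class I genes between H2-DMb1 and H2-Ob, which encode the TAP transporter and immunoproteasome subunits, had log2 fold changes from -0.27 for Tap2 to -0.09 for Psmb9, and none passed.

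**Figure D4:**
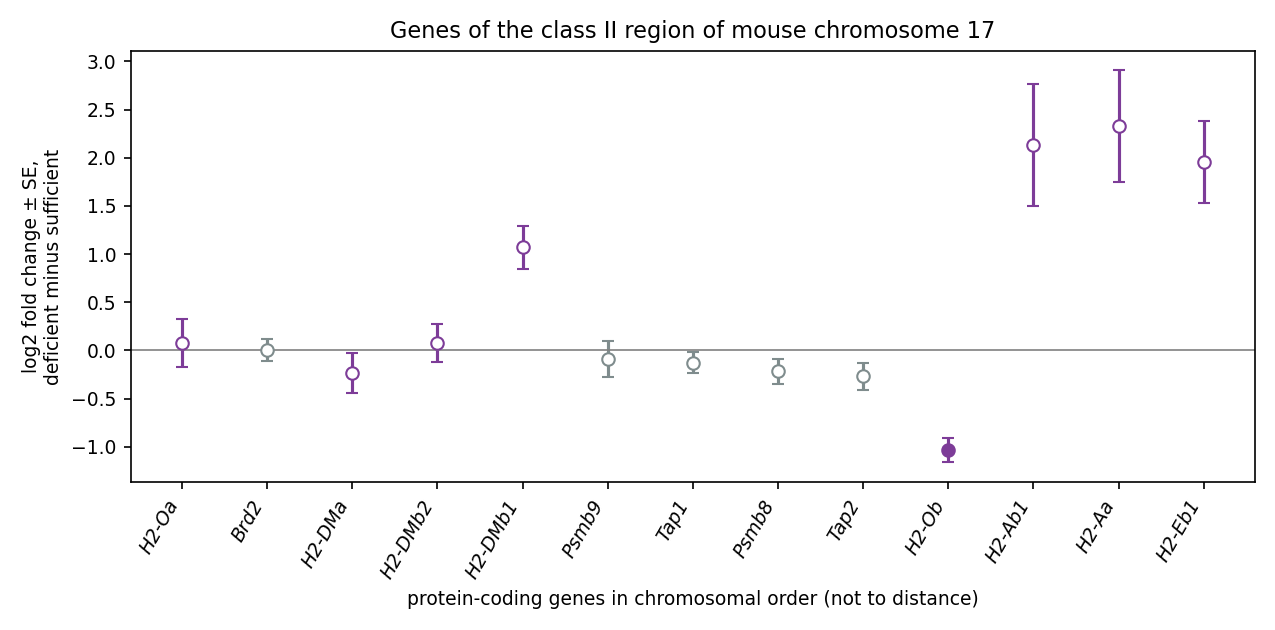
Log2 fold change ± SE of the 13 protein-coding genes from H2-Oa to H2-Eb1 in their order along chromosome 17, not to distance. H2 genes are purple, others grey, and a filled point marks an adjusted p under 0.05. H2-Ob, at -1.03, stands next to H2-Ab1, at 2.13.

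The factors that assemble on class II promoters were present in both groups. Of 12 tested genes in that list none was called in either direction, against 2.63% of all tested genes. The list median of -0.02 was near that of all genes. The RFX subunit genes Rfx5, Rfxap and Rfxank measured 13.6 ± 1.22, 8.01 ± 1.82 and 14.4 ± 1.88 FPKM in deficient libraries, against 13.1 ± 1.32, 9.57 ± 0.490 and 13.02 ± 0.540 FPKM in sufficient ones. Irf1, an interferon-responsive factor upstream of Ciita, measured 174 ± 35.4 FPKM in deficient libraries, against 191 ± 15.9 FPKM in sufficient ones. Spi1, the PU.1 gene of myeloid and B cells, measured 2.29 ± 0.661 against 0.837 ± 0.695 FPKM (limma adjusted p = 0.262). It passed the filter on low values only through the deficient group.

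Of 11 tested genes of proteolysis and loading 1 was higher and none lower, against 1.93% and 0.697% of all tested genes (median log2 fold change 0.62). Lgmn, an endosomal asparagine endopeptidase, rose to 26.5 ± 4.12 FPKM in deficient libraries, against 12.9 ± 1.15 FPKM in sufficient ones (log2 fold change 0.98, SE 0.14, limma adjusted p = 0.0212). The Lgmn call ended with no filter on low values and without sufficient replicate 2. With 8 libraries taken as separate 5 genes of the list were higher, where 9.46% of all genes were. No gene of any list described here was called without either averaged pair of deficient libraries, each of which leaves 1 deficient library. Ctss, whose protease degrades the invariant chain, measured 197 ± 6.44 against 224 ± 33.3 FPKM (limma adjusted p = 0.562). Ctsh, a cathepsin, measured 9.95, 4.85, 10.6 and 4.52 FPKM in deficient replicates 1 to 4, against 0, 2.52, 0.279 and 1.74 FPKM in sufficient replicates 1 to 4 (limma adjusted p = 0.123), with deficient replicates 1 and 3 highest and sufficient replicates 1 and 3 lowest.

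Of 5 tested genes of surface turnover and costimulation 2 were higher and none lower, against 1.93% and 0.697% of all tested genes. The count higher was 1 without sufficient replicate 2 or without sufficient replicates 1 and 3. The count lower was 1 without sufficient replicates 1 and 3, and 1 with 8 libraries taken as separate. March8, a ubiquitin ligase of the family that turns over class II molecules, rose to 4.70 ± 1.05 FPKM in deficient libraries, against 0.438 ± 0.177 FPKM in sufficient ones (log2 fold change 1.98, SE 0.22, limma adjusted p = 0.00982), and it passed the filter only through the deficient group. Icosl, the ligand of ICOS, rose to 36.3 ± 0.319 FPKM in deficient libraries, against 14.3 ± 4.50 FPKM in sufficient ones (log2 fold change 1.32, SE 0.22, limma adjusted p = 0.0319). March1, whose product ubiquitinates class II and CD86, did not pass the filter and measured 1.09 ± 0.162 against 0.148 ± 0.0602 FPKM. Cd83, which opposes that turnover, measured 15.8 ± 0.843 against 50.4 ± 27.6 FPKM (limma adjusted p = 0.124).

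Class I presentation showed no call in either direction among 21 tested genes (median log2 fold change -0.20). Every deficient library was lower in 5 of the 21 and higher in 0, against 17.9% and 18.9% of all tested genes. With 8 libraries taken as separate, 2 class I genes were called lower, where 7.98% of all genes were. B2m, the light chain of class I, measured 3262 ± 542 against 3788 ± 592 FPKM, and Nlrc5, the class I counterpart of Ciita, 90.0 ± 7.48 against 88.0 ± 7.05 FPKM. Reads of the class I heavy chains are shared among near-identical genes, so their single values are uncertain.

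Markers of several antigen-presenting cells were read in the same libraries, and fewer cells of a type cannot be told from less RNA per cell in bulk samples. Of 19 tested macrophage and monocyte markers 10 were higher and none lower, against 1.93% and 0.697% of all tested genes (median log2 fold change 2.64). The count was 4 without sufficient replicate 4, 5 without sufficient replicate 2, 5 with a pseudocount of 0.1, 6 with robust empirical Bayes, 1 with no filter and 16 with equal totals. Of the 19, 4 passed the filter only through the deficient group, 2 of them among the 10. The summed level of the list was 769 and 401 FPKM in the 2 deficient libraries and 37.7 to 108 FPKM in the 3 sufficient ones. Of its 21 genes found, 20 had every deficient library above every sufficient one, against 18.9% of all tested genes. Fcgr1 and Marco, among the 20, did not pass the filter on low values, while that share covers only genes that passed. Lyz2, a macrophage lysozyme, measured 155, 63.5, 161 and 61.2 FPKM in deficient replicates 1 to 4, against 4.59, 15.0, 1.99 and 7.60 FPKM in sufficient replicates 1 to 4. The Fc receptor gene Fcgr3, the pore-forming protein gene Mpeg1, Emr1, which encodes F4/80, and Ly6c2 had the lowest adjusted p, from 0.00836 for Fcgr3 to 0.0246 for Ly6c2 (limma).

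In both the macrophage sum and the sum of the classical chains, deficient replicates 1 and 3 were highest and sufficient replicates 1 and 3 lowest. The chains summed to 68.5 and 44.4 FPKM in deficient libraries, against 2.42 FPKM in sufficient replicates 1 and 3, 16.1 in replicate 2 and 17.8 in replicate 4. Mean sums were 4.66 times the sufficient level for the chains and 7.05 times for the macrophage markers. Between the 2 deficient libraries the macrophage sum differed by 1.92 times and the members by 1.13 to 1.68 times. The part of these cells in the class II values was not tested.

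Against 1.93% of all tested genes called higher and 0.697% lower, 2 of 6 tested dendritic cell markers were higher and none lower. These were Batf3, a transcription factor of cross-presenting dendritic cells, and Siglech, a plasmacytoid dendritic cell lectin, at 3.82 ± 1.62 against 0.499 ± 0.343 FPKM and at 4.32 ± 2.79 against 0.146 ± 0.126 FPKM (limma adjusted p = 0.0366 and 0.0319). Both passed the filter only through the deficient group. The count was 0 with a pseudocount of 0.1 and when sufficient replicate 2, replicate 4 or the averaged replicates 1 and 3 were left out, and 1 with no filter, with quantile normalization or without deficient replicate 3. The list summed to 169 and 171 FPKM in deficient and 136 to 147 FPKM in sufficient libraries, most of it Bst2, which T cells also express. Of 16 markers, 11 had every deficient library above every sufficient one, against 18.9% of all tested genes. That share covers genes that passed the filter on low values, which only 6 of the 16 markers did. Batf3, Siglech, Ccr9 and Snx22 are those of the 11 that were tested. Itgax, the CD11c gene, measured 1.24 ± 0.0279 against 0.109 ± 0.0867 FPKM. Siglech, Cadm1 and Wdfy4 were also highest in deficient replicates 1 and 3 and lowest in sufficient replicates 1 and 3. Cadm1 and Wdfy4 did not pass the filter. Batf3, Ccr9 and Snx22 were instead highest in deficient replicates 2 and 4. The library order of the macrophage and chain sums was thus not particular to macrophage markers. The part of dendritic cells in the class II values was not tested.

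Of 5 tested B cell markers 1 was higher, Ly6d, and none lower, against 1.93% and 0.697% of all tested genes. The Ly6d call ended with no filter, without sufficient replicate 2 and without sufficient replicate 4. Of all 14 B cell markers found, 4 had every deficient library above every sufficient one and 1 had every one below. The shares of all tested genes were 18.9% and 17.9%. The 4 were Ly6d, Cd79a, Blnk and Fcrla, of which Blnk and Fcrla did not pass the filter on low values. Only 5 of the 14 markers passed it, while the shares cover only genes that passed. Blnk, a B cell receptor adaptor, averaged 1.23 against 0.194 FPKM and Fcrla, an intracellular Fc receptor-like protein gene, 0.708 against 0.152 FPKM. The list summed to 25.1 and 27.6 FPKM in deficient and 16.9 to 31.4 FPKM in sufficient libraries. Ms4a1, which encodes CD20, and Pax5, a B cell transcription factor, were near 0 in both groups, with Ms4a1 at 0.227 ± 0.322 against 0.248 ± 0.219 FPKM and Pax5 at 0.0450 ± 0.00692 against 0.0254 ± 0.0440 FPKM. Cd79b, the most abundant of the list, measured 7.65 ± 1.56 against 12.4 ± 3.97 FPKM (limma adjusted p = 0.272). In the plasma cell list Mzb1 was higher, 1 of 4 tested against 1.93% of all genes, and passed the filter only through the deficient group. Its call ended with a pseudocount of 0.1, no filter, quantile normalization, or when sufficient replicate 2 or the averaged replicates 1 and 3 were left out. The list sums were 49.7 and 73.3 FPKM in deficient and 49.3 to 58.5 FPKM in sufficient libraries. In the T cell and Treg list 1 of 11 was lower, Ctla4, and none higher, against 0.697% and 1.93% of all tested genes. The Ctla4 call ended with no filter and without sufficient replicate 2. Of the 11, 8 had every deficient library below every sufficient one and 1 above, against 17.9% and 18.9% of all tested genes. The list sums were 2835 and 3047 FPKM in deficient and 3465 to 3824 FPKM in sufficient libraries.

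**Figure D5:**
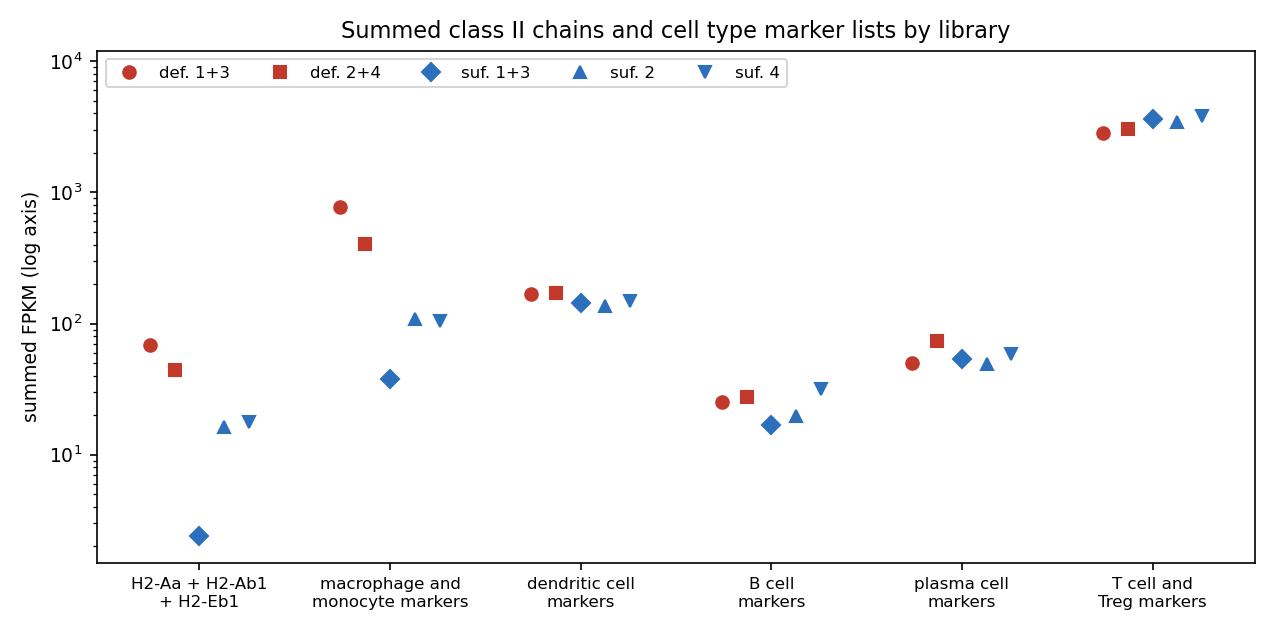
Summed FPKM of H2-Aa, H2-Ab1 and H2-Eb1 and of each marker list in the 5 independent libraries, on a log axis, deficient (red) left of sufficient (blue). The chains (68.5 and 44.4 against 2.42 to 17.8 FPKM) and the macrophage markers (769 and 401 against 37.7 to 108 FPKM) separate the groups. So do the dendritic cell markers, at 169 and 171 against 136 to 147 FPKM. The T cell and Treg markers separate the other way, at 2835 and 3047 against 3465 to 3824 FPKM. The B cell and plasma cell sums overlap.

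Outside the members, the genes whose profile over the 5 libraries was closest to the mean profile of the 7 tested members were Unc93b1, Tgm2, Pla2g15, Smagp, Abcc3 and Grn, among 9297 genes ranked. Likeness is the root mean square difference of log2(FPKM + 1) values, each centred on the gene's own mean, and ran from 0.17 for Unc93b1 to 0.22 for Grn. The members themselves lay between 0.19 for Cd74 and 1.10 for H2-Ob from that mean, so the mean profile is nearest to that of Cd74 and describes H2-Ob poorly. Unc93b1, a chaperone of endosomal Toll-like receptors, measured 31.5, 20.8, 31.6 and 20.4 FPKM in deficient replicates 1 to 4, against 8.07, 13.9, 10.8 and 16.3 FPKM in sufficient replicates 1 to 4.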

How the data were processed

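RNA was sequenced from sorted CD4+YFP+ cells; per the labels, sort purity was above 97% and libraries came from total RNA with a stranded kit. The submitters' processing notes name STAR 2.5.1 and the build mm10, Cuffdiff 2.2.1 and Cuffnorm 2.2.1, cutadapt 1.12, FastQC and Trim Galore 0.4.2, with no settings. The authors deposited FPKM per gene, a unit taken from the table's name and values. Of 16 value columns 8 matched a sample and 8 were not used, though the first look at the table showed rows of all 16. FPKM is relative within a library, so abundant transcripts move other values.

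Depth was estimated from 2172 single-transcript genes of at least 1500 bases, whose low values peak at 1 fragment; it is approximate, so no counting interval is given and no count model was run. Same-group columns whose spread over genes at 150 to 500 fragments was under 1.5 times sampling noise were averaged; without that step 8 columns entered. The 10614 genes averaging 1 FPKM or more were tested with limma 3.58.1 (R 4.3.3) on the log2(FPKM + 1) scale (mean-variance trend, 2 groups, two-sided, Benjamini-Hochberg over all genes tested, threshold 0.05). The procedure was tested on simulated data. Gene positions are from GENCODE M21 (GRCm38).

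The members and all lists were chosen with earlier results of these data known. Named genes were all members, Bcl11b, in each list up to 4 called genes or else the 2 most abundant, the 3 most abundant of each marker list, and the 6 genes of closest profile; not every one is described, and some are not reported here. Rfx5, Rfxap, Rfxank, Spi1, Ctss, Ctsh, March1, Cd83, Nlrc5, Tap2, Psmb9, Itgax, Blnk, Fcrla, Ms4a1, Pax5, Cd3e and Foxp3 were added after their values were seen. Alternatives covered the pseudocount, filter, scaling, moderation, averaging, replicate block and each library left out.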

Additional observations from a re-analysis of the deposited data

How the results depend on the processing

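All 7 tested members kept the direction of their fold change under every alternative run, and H2-DMa passed under none. H2-Ob lost its call at -1.03 with no filter, at -1.11 when deficient replicates 1 and 3 were left out and at -0.95 when 2 and 4 were, and its log2 fold change ran from -1.12 to -0.95 over all left-out libraries. The members called lower were then 0 rather than 1. The members called higher were 2 with equal totals, 1 with robust empirical Bayes and 5 with 8 columns separate. They numbered 0 to 3 with libraries left out, the 3 without sufficient replicates 1 and 3. Bcl11b lost its call with no filter (-0.95) and equal totals (-0.75), and ran from -1.13 to -0.78 with libraries left out, with -0.89 without sufficient replicate 2 and -1.01 without sufficient replicate 4. The count of all genes called, 279, was 182 with a pseudocount of 0.1, 99 with no filter, 1851 with 8 columns separate and 8 to 297 with libraries left out. Leaving out sufficient replicate 2 gave 80, replicate 4 gave 133 and replicates 1 and 3 gave 167, while the deficient pairs gave 16 (1 and 3) and 8 (2 and 4). Fewer libraries leave fewer residual degrees of freedom, and the cause was not tested otherwise. Equal totals moved the median of all genes to 0.18 and the share of calls that were higher to 91.9%, against 73.5%; no filter also gave 91.9%, 8 columns separate 54.2%. The summed members ran from 154 to 224 FPKM in deficient and 86.6 to 128 FPKM in sufficient libraries when libraries were left out.

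With the replicate number as a block on 8 columns 1418 genes were called, with 4 members higher and 1 lower. Deviations of same-numbered columns correlated at 0.0293 to 0.126, and those of differently numbered columns at -0.108 to 0.130. This check cannot decide on pairing, because near-identical columns of a group carry different numbers. The numbers were not taken as pairs, since the titles do not state that they mark a shared animal or day. Depth limits Ciita and the low values of the classical chains.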
